A study of Mus musculus with 3 samples.

Results

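The genes described here are 9 genes known to respond to TGF-β signaling, most of which encode extracellular matrix: *Postn*, *Tgfbi*, *Ccn2*, *Tnc*, *Fn1*, *Eln*, *Lox*, *Pmepa1* and *Skil*. They were taken by symbol from the 32285 genes of the count tables, and all 9 symbols were found. The set was chosen with earlier results of these data known. Counts and ranks of members set beside all genes below are thus a description and not independent evidence. Their levels were read in soft palate from E14.5 C57BL/6 mouse embryos, from which 2 control libraries and 1 mutant library of single cells were made with a 10x Genomics 3′ kit. Transcripts were counted by their unique molecular identifiers (UMIs), which keep PCR duplicates from being counted again. Unless said otherwise, values are listed in the order control 1, control 2, mutant. The mutant embryos were Osr2-Cre;Alk5fl/fl, where Alk5 is an older name of *Tgfbr1*, the type I TGF-β receptor. The controls carried floxed *Tgfbr1* alleles (fl/fl or fl/+) by the study's figure legends, which name no Cre for them. Osr2-Cre is expressed in palatal mesenchyme and not in the muscle cells. The comparison asks how the matrix genes that this receptor can drive were expressed when it was targeted in the palatal mesenchyme. By the genotypes given, the *Osr2*-Cre allele was present in the mutant library only, so its effect and that of the receptor loss cannot be told apart.

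TGF-β ligands bring a type II receptor to TGFBR1, which phosphorylates SMAD2 and SMAD3. These move with SMAD4 to the nucleus, where the complexes bind short CAGAC elements. In fibroblasts the classic output is matrix and the enzymes that bind it together, with feedback inhibitors such as PMEPA1, which holds back SMAD2 and SMAD3, and SnoN, the product of *Skil*, which represses SMAD targets. In the palate this pathway is known for its part in the growth and fusion of the shelves and in the connective tissue that surrounds the forming muscles.

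The RefSeq promoter table (GRCm38.p6) held windows for 3 members, *Postn*, *Tgfbi* and *Tnc*, from 250 bases before to 50 after the start that RefSeq gives the gene. They are shown because the 3 genes encode matricellular proteins of the same tissue and are compared below, and the capitals mark CAGAC on either strand (GTCTG when it lies on the other strand). The *Postn* window is chr3:54360857-54361156 on the plus strand, the *Tgfbi* window chr13:56609336-56609635 on the plus strand, and the *Tnc* window chr4:64046966-64047265 on the minus strand.
Postn: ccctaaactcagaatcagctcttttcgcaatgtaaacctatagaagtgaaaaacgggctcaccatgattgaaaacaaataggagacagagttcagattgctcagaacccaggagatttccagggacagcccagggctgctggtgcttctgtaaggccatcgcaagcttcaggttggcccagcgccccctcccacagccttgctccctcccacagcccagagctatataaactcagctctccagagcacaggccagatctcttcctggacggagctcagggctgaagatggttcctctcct
Tgfbi: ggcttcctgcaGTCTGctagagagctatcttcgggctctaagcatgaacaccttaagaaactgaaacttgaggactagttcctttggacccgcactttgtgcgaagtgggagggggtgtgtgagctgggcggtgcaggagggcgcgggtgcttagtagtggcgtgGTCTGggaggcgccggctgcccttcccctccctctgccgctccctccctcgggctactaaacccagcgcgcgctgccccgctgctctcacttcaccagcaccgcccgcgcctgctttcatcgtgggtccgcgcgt
Tnc: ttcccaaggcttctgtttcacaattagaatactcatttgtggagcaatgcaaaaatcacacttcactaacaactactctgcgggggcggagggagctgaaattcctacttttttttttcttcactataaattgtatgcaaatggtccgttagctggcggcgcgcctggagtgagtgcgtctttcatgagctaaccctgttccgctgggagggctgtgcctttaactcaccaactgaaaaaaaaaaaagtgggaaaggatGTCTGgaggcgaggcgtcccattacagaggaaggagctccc
The *Tgfbi* window held 2 copies of CAGAC, both on the reverse strand, 239 and 85 bases before the RefSeq start, which lies 63 bases after the GENCODE start of the gene printed further on. The *Tnc* window held 1 copy, 9 bases after the start, and the *Postn* window held none. CAGAC was present on either strand in 49.6% of the 32851 windows of the table. The TATA box letters TATAAA, searched on both strands, were in the *Postn* and *Tnc* windows and in 13.6% of all windows. The AP-1 letters TGANTCA, whose other strand reads the same, were in none of the 3 windows and in 7.81% of all. These matches are a description of the letters in these windows only.

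Palatal mesenchymal cells were gated by marker genes and not clustered. A cell was taken as mesenchymal if it carried UMIs of at least 2 of the 7 genes *Prrx1*, *Prrx2*, *Twist1*, *Twist2*, *Pdgfra*, *Msx1* and *Runx2* and did not meet the gate of another lineage. This gave 1106, 2152 and 3708 cells, 6966 of the 13262 cells kept, or 53.7%, 58.3% and 49.4% of each library. All 7 defining genes were found in each library, and their summed level was 1197, 1181 and 1292 counts per 1000000 UMIs (CPM). Subtypes were gated within them by at least 2 UMIs of *Hic1*, *Ebf2* and *Meox1* (perimysial, the connective tissue around muscle), of *Lsp1*, *Wnt16* and *Sostdc1* (midline), of *Tfap2b* and *Eya4* (progenitor), of *Scx*, *Tnmd* and *Mkx* (tendon) or of *Sp7*, *Ibsp*, *Ifitm5* and *Phex* (osteogenic). In the main setting a cell counts for a gate if it met that gate alone. The perimysial gate then held 77, 56 and 79 cells, the midline gate 407, 1012 and 986, and 279, 671 and 1559 cells met no subtype gate. Shares of the mesenchyme differed between the libraries, with the perimysial gate at 6.96%, 2.60% and 2.13% and the midline gate at 36.8%, 47.0% and 26.6%. As a check of the label, the 5 other perimysial markers, among them *Aldh1a2* and *Cxcl12*, summed to 1629, 1230 and 895 CPM in the perimysial gate. In the midline gate they summed to 599, 333 and 271 CPM, so they were higher where the label places them in every library. The 4 other tendon markers summed to 204, 378 and 245 CPM in the tendon gate and to 197, 179 and 168 CPM in cells of no subtype gate. The 5 other osteogenic markers summed to 2138, 1791 and 2355 CPM in the osteogenic gate and to 1859, 2098 and 1795 CPM in cells of no subtype gate. In control 2 they were thus lower where the label places them. These checks used cells that met a single gate, and no other markers were listed for the midline and progenitor gates.

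The libraries held between 2816 and 8690 cell barcodes and between 22624711 and 63505144 UMIs, and the median depth of the gated mesenchymal cells was 7631, 5080 and 5019 UMIs. Pairs of libraries shared 18 to 49 barcode sequences. The spread between the 2 control libraries exceeded counting error, with a chi-square of 28.6 per degree of freedom across 13536 genes, and nothing in the labels says that they came from separate embryos, so p-values measure the spread between these libraries. RNA of other cell types was also spread unevenly. In gated mesenchymal cells the 7 erythroid markers summed to 3874, 941 and 437 CPM, the 8 myogenic markers to 83.2, 19.6 and 6.23 CPM, and the 8 myeloid markers to 47.7, 20.8 and 3.96 CPM, and no defining marker of these lists was at 0. The part of this RNA in the results was not tested. The neuronal gate, which used *Tubb3* and *Gap43* among others, took 90, 59 and 570 cells (7.59% of the mutant cells), and the mesenchymal markers summed to 1230, 978 and 775 CPM in them, so cells with mesenchymal markers were left out of the counts below. The 8 neuronal markers summed to 1396, 1727 and 5465 CPM in the same cells, so the make-up of this gate differed between the libraries. *Lox* was at 139, 114 and 52.7 CPM in these cells. For that reason these *Lox* levels cannot be set beside those of the mesenchyme.

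The receptor gene itself was read first. *Tgfbr1* was counted at 53.6 CPM (95% Poisson interval 49.0 to 58.6), 61.3 (57.1 to 65.8) and 44.7 (42.0 to 47.6) in the gated mesenchyme, with an edgeR log2 ratio of -0.36 ± 0.35 (SE) and an adjusted p of 1.0. Reads of this chemistry come from the 3′ end of transcripts and may lie outside the deleted part, so this level does not check the deletion. *Osr2*, the gene whose locus drives the Cre, was counted at 237, 332 and 108 CPM in the gated mesenchyme (edgeR log2 ratio -1.40 ± 0.38, adjusted p = 0.024). This call was made in 10 of the 13 settings tried, with adjusted p up to 0.621 in the others.

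In the mesenchyme as a whole, 8 members were counted at 10 CPM or more on average, and all 8 were lower in the mutant than in both controls. How many of all genes lay below both controls was not counted, so this count has no exact share beside it. The share was at least the 28.6% given below, and the median log2 ratio over all genes was itself under 0. The lowest ratios were those of *Tgfbi*, *Lox* and *Tnc*, at 0.51, 0.52 and 0.56 of the geometric mean of the controls. No member passed the test across all genes. A member or gene was described as clear of the control gap when the mutant lay outside both controls and its log2 ratio to their mean was larger than the log2 difference between them. That held in the lower direction for 5 of the 8 members (*Tgfbi*, *Lox*, *Tnc*, *Pmepa1* and *Fn1*), beside 28.6% of the 8408 genes tested. By edgeR at an adjusted p of 0.05, 103 of those genes were called (1.23%), 30 higher and 73 lower, and none was a member. An unadjusted p under 0.05 was given to 418 genes, 3 of them members. DESeq2 called 29 genes and edgeR with TMM factors 2, with no member among them. The median log2 ratio was -0.51 over the 8 members and -0.08 over all genes tested. TMM factors, which assume that most genes do not differ, moved the median over all genes to 0.06 and left 16.7% of genes clear of the gap in the lower direction and 21.9% in the higher, against 9.35% higher in the main scaling. Under TMM all 8 members remained below the control mean, and 5 were clear of the gap, while *Postn*, *Eln* and *Skil* lay between the controls. The share of all genes below the control mean under TMM was not counted. Without control 1 the log2 ratio was -0.82 for *Postn*, -0.44 for *Skil* and -0.013 for *Eln*, and without control 2 it was -0.016, -0.043 and -0.56, so for these 3 genes 1 control decided the size. For *Lox* it was -0.90 and -0.97, and for *Tgfbi* -1.14 and -0.78.

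**Figure D1:**
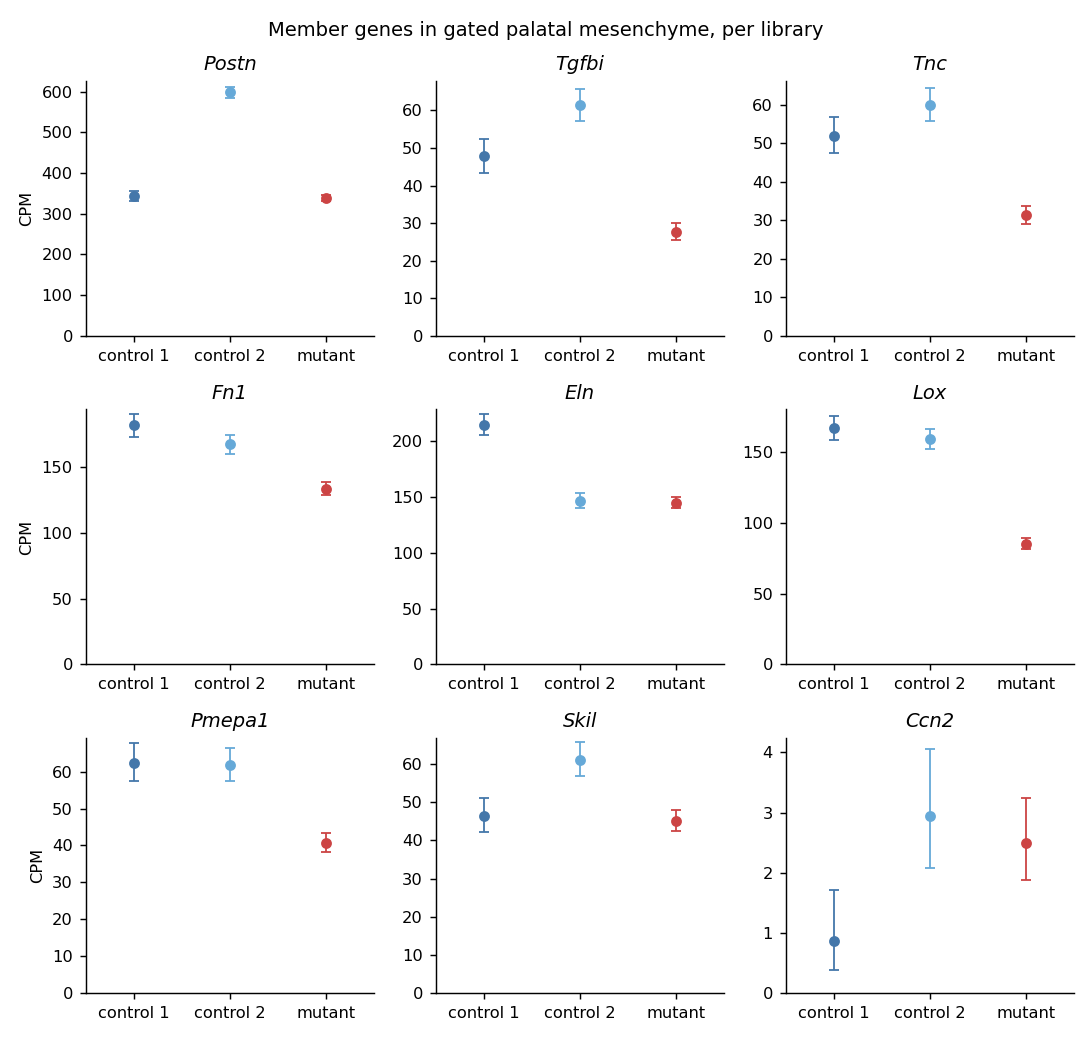
Level of each of the 9 members in counts per 1000000 UMIs (CPM, vertical axes from 0, each with its own range) in the gated palatal mesenchyme of control 1, control 2 and the mutant (horizontal axes). Points are 1 library each and bars are exact 95% Poisson intervals for counting error; *Tgfbi*, *Tnc*, *Fn1*, *Lox* and *Pmepa1* lie clearly below both controls in the mutant, while *Postn*, *Eln* and *Skil* lie close to 1 of them.

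Of the matricellular genes, *Tgfbi* (ENSMUSG00000035493, chr13:56609523-56639562) encodes a secreted protein that binds collagens and integrins and is named for its induction by TGF-β. It was counted at 47.8 CPM (43.4 to 52.4), 61.3 (57.1 to 65.8) and 27.7 (25.6 to 30.007) in the mesenchyme. The mutant lay below both controls, with a log2 ratio of -0.96 against a control gap of 0.36, and edgeR gave -0.98 ± 0.36 (adjusted p = 0.297). Only 1.74% of the genes tested had a lower ratio.

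*Tnc* (ENSMUSG00000028364, chr4:63959785-64047015) encodes tenascin C, a matrix glycoprotein of tendon, condensing mesenchyme and wounds. It was counted at 51.9 CPM (47.3 to 56.7), 59.9 (55.7 to 64.3) and 31.3 (29.1 to 33.8) over the libraries. The mutant again lay below both controls, by -0.83 on the log2 scale with a gap of 0.21 (edgeR SE 0.36, adjusted p = 0.569).

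*Postn* (ENSMUSG00000027750, chr3:54361109-54391037) encodes periostin, which assists collagen crosslinking and is abundant in fibroblasts under load. Its level was 343 CPM (331 to 355), 598 (585 to 612) and 339 (331 to 347). The mutant was at the level of control 1, and the controls differed from each other by 0.80 on the log2 scale, more than the log2 ratio of -0.42 (edgeR adjusted p = 1.0).

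*Ccn2* (ENSMUSG00000019997, chr10:24595442-24598683) encodes connective tissue growth factor. It was close to undetected in these cells, with 8, 37 and 56 UMIs over all gated mesenchymal cells, or 0.867, 2.94 and 2.49 CPM, and the mutant between the controls. It was below the minimum of 10 CPM and was not tested. Shares of cells with a UMI were also read after each cell was thinned to 3000 UMIs. Cells under 3000 UMIs were then left out, which were 15 of 1106, 336 of 2152 and 696 of 3708 mesenchymal cells. Of the mesenchymal cells left, 0.0917%, 0.826% and 0.531% carried a *Ccn2* UMI. Before thinning the shares were 0.723%, 1.58% and 1.29%, and 0 of 58, 108 and 153 myeloid cells carried one.

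The second set encodes the fibres and the enzyme that crosslinks them. *Fn1* (ENSMUSG00000026193, chr1:71585520-71653200) encodes fibronectin, the scaffold on which other matrix is laid. It was counted at 181 CPM (173 to 190), 167 (160 to 174) and 133 (128 to 138), below both controls by a log2 ratio of -0.39 with a gap of 0.12 (edgeR SE 0.36, adjusted p = 1.0).

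*Eln* (ENSMUSG00000029675, chr5:134702593-134747323) encodes tropoelastin. It was counted at 215 CPM (205 to 224), 146 (140 to 153) and 145 (140 to 150). The mutant and control 2 were within each other's counting intervals, while the control gap of 0.55 exceeded the log2 ratio of -0.29.

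*Lox* (ENSMUSG00000024529) encodes lysyl oxidase, which crosslinks collagen and elastin. It had closely matched controls, 167 CPM (158 to 175) and 159 (152 to 166), and 85.2 CPM (81.4 to 89.1) in the mutant. The log2 ratio of -0.94 stood beside a gap of 0.07 (edgeR SE 0.36, adjusted p = 0.373). The share of mesenchymal cells with a *Lox* UMI after thinning was 34.1%, 37.0% and 19.9% (for the last, exact 95% interval 18.4 to 21.3), against 17.3%, 1.11% and 0% (0 of 136 cells, exact upper bound 2.68%) of the myeloid cells, a lineage outside the mesenchyme. Before thinning the shares in the mesenchyme were 60.6%, 50.6% and 31.1%, at median depths of 7631, 5080 and 5019 UMIs, and 32.8%, 4.63% and 3.27% in the myeloid cells, at 9499, 5913 and 5160 UMIs.

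The last pair are the intracellular feedback genes. *Pmepa1* (ENSMUSG00000038400, chr2:173224458-173276533) was counted at 62.4 CPM (57.4 to 67.7) and 61.9 (57.6 to 66.4) in the controls and 40.8 (38.2 to 43.5) in the mutant. The controls were almost level, with a gap of 0.01, and the log2 ratio was -0.61 (edgeR SE 0.35, adjusted p = 1.0).

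*Skil* (ENSMUSG00000027660, chr3:31095058-31122577) was counted at 46.5 CPM (42.2 to 51.1), 61.2 (57.0 to 65.7) and 45.1 (42.4 to 48.0). The mutant overlapped control 1, and the log2 ratio of -0.24 was within the control gap of 0.40.

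**Figure D2:**
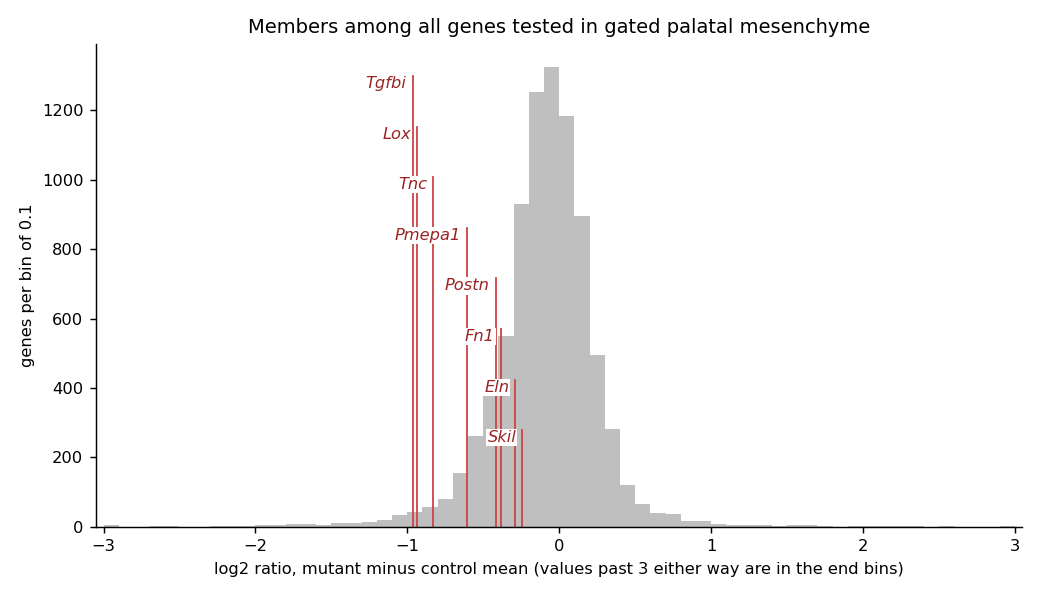
Number of genes (vertical axis) per 0.1 of log2 ratio of the mutant to the control mean (horizontal axis) among the 8408 genes tested in gated palatal mesenchyme, with the 8 tested members marked by red lines whose height has no meaning. The members lie between -0.96 (*Tgfbi*) and -0.24 (*Skil*), all left of the median of all genes at -0.08.

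The difference was also read within subtypes, since a sum over the whole mesenchyme follows its mix of cells. With the perimysial, midline and no-gate cells given the same weight in each library, the log2 ratios over the mesenchyme were -1.33 for *Lox*, -1.03 for *Tnc* and -0.58 for *Tgfbi*, and those of the other 5 tested members lay between -0.57 and -0.38 or, for *Eln*, at -0.33. Among cells that met the midline gate alone, 7 of 8 members were clear of the control gap in the lower direction, beside 29.4% of the 8337 genes tested. The members' median log2 ratio there was -0.86, against -0.07 over all genes. By edgeR 99 genes were called (1.19%), 18 higher and 81 lower, and no member. An unadjusted p under 0.05 was given to 476 genes, 6 of them members. DESeq2 called 6 genes and edgeR with TMM factors 87, again without a member. TMM factors moved the median over all genes to 0.04 and left 6 members clear of the gap, beside 20.4% of genes in the lower direction and 21.4% in the higher.

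*Lox* was counted at 187 CPM (173 to 202), 166 (156 to 177) and 77.1 (70.0 to 84.8) in the midline gate. This was 0.44 of the geometric mean of the controls (edgeR log2 ratio -1.19 ± 0.35, adjusted p = 0.058). The test was passed in 2 of the 13 settings tried, at an adjusted p of 0.025 where cells of other lineages were left out only at 3 genes and 5 UMIs and at 0.036 where the perimysial gate needed *Hic1* and *Ebf2* each.

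*Pmepa1* was the next lowest in the midline gate, with 59.2 CPM (51.3 to 68.0), 59.9 (53.9 to 66.5) and 27.0 (22.8 to 31.7), a log2 ratio of -1.14 ± 0.35 (edgeR adjusted p = 0.085). *Skil*, which overlapped a control over the whole mesenchyme, was counted at 44.2, 50.3 and 25.5 CPM in the midline gate, where the mutant interval of 21.5 to 30.1 lay below those of both controls (edgeR adjusted p = 0.413). The midline levels of *Pmepa1* and *Skil* were 0.45 and 0.54 of the geometric mean of the controls, and neither passed the test.

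*Eln* was at 197, 113 and 83.5 CPM in the midline gate, below both controls with a log2 ratio of -0.84 and a gap of 0.80 (edgeR adjusted p = 0.383). *Tgfbi* was at 62.2, 66.6 and 34.8 CPM (log2 ratio -0.89, adjusted p = 0.405) and *Tnc* at 63.7, 71.6 and 38.5 CPM (-0.81, adjusted p = 0.537, both by edgeR). *Postn* remained the member inside its control gap, at 417, 611 and 384 CPM. The midline gate was also read with cells that could meet several gates (594, 1271 and 1412 cells). *Eln* was then at 238, 135 and 137 CPM, with the mutant between the controls. *Fn1* was at 211, 175 and 164 CPM, *Skil* at 49.0, 58.2 and 41.4 CPM and *Lox* at 185, 165 and 91.0 CPM, each with the mutant below both controls. The count of members clear of the gap thus depended on how the gate was drawn.

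Cells that met no subtype gate gave a similar picture, with 7 of 8 members clear of the gap in the lower direction, beside 29.6% of genes. The ratios were lowest for *Lox* (162, 147 and 68.1 CPM, log2 ratio -1.18), *Tgfbi* (46.0, 55.9 and 22.4 CPM, -1.18) and *Tnc* (43.4, 39.2 and 19.7 CPM, -1.07). EdgeR called 0 of 8294 genes in these cells (0.0%), with 383 at an unadjusted p under 0.05, 5 of them members. DESeq2 called 1 gene and edgeR with TMM factors 57, none a member. TMM factors moved the median over all genes from -0.11 to 0.07 and left 5 members clear of the gap, beside 18.7% of genes in the lower direction and 22.3% in the higher.

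In the perimysial gate the members differed among themselves. There 3 of 8 were clear of the gap in the lower direction (*Lox*, *Postn* and *Skil*), beside 27.2% of the 8425 genes tested. *Skil* rested on 33, 21 and 19 UMIs, and its log2 ratio of -0.33 turned to 0.39 with thinned cells and to 0.47 where *Hic1* and *Ebf2* were each required. The median log2 ratio over the 8 members was -0.22, against -0.06 over all genes. EdgeR called 29 genes (0.344%), 8 higher and 21 lower, and no member, while DESeq2 and edgeR with TMM factors called 0, and 484 genes had an unadjusted p under 0.05 in the main scaling, 3 of them members. With TMM factors 3 members were clear of the gap, beside 23.9% of genes. The gate held 56 to 79 cells a library, so its counts are small.

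*Lox* had its lowest ratio in the perimysial gate, with 190 CPM (156 to 230), 143 (104 to 190) and 51.9 (31.7 to 80.1) from 107, 46 and 20 UMIs. The edgeR log2 ratio was -1.69 ± 0.46 (adjusted p = 0.061). It passed in 2 of 12 settings, at 0.048 and 0.037 where other lineages were left out at 2 genes and 2 UMIs or at 3 genes and 5 UMIs. By edgeR it was far from passing with doublets kept (adjusted p = 0.985), TMM factors (0.968) or thinned cells (0.991). Among cells that met the perimysial gate whether or not they met another (188, 133 and 262 cells) the level was 201, 149 and 94.0 CPM and the log2 ratio -0.88 (adjusted p = 0.644), so the size of the difference depended on how the gate was drawn.

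*Tgfbi* and *Pmepa1* had no fixed direction in the perimysial gate, and without control 1 or control 2 the log2 ratio of *Tgfbi* was -0.52 or 0.96. *Tgfbi* had 26.7, 74.4 and 51.9 CPM, from 15, 24 and 20 UMIs, and the mutant lay between the controls. *Pmepa1* was at 80.0, 46.5 and 80.4 CPM, with the mutant level with control 1. *Tnc* was at 30.2, 89.9 and 23.3 CPM, where the controls differed by 1.57 on the log2 scale, more than the ratio of -1.16. *Fn1*, at 229, 208 and 202 CPM, and *Eln*, at 347, 229 and 267 CPM, had mutant levels whose intervals overlapped those of a control.

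A model of gate and genotype over the perimysial, midline and no-gate cells asked whether the difference varied between these subtypes. EdgeR called 0 of 8388 genes (0.0%), with 379 at an unadjusted p under 0.05, 3 of them members, and DESeq2 and edgeR with TMM factors called 1 each. The contrast of the perimysial gate with the others was 1.30 for *Pmepa1* (adjusted p = 0.685) and 1.23 for *Tgfbi* (adjusted p = 0.738) on the log2 scale, so a difference between subtypes was not shown for them. With cells allowed in several gates and 6 gates fitted, 14 of 8509 genes were called (0.165%) and again no member, with the lowest adjusted p among members for *Fn1* (0.072). Cells that met several gates entered more than 1 gate sum of this last fit. Its p-values take these sums as separate, so they cannot be read as error rates.

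**Figure D3:**
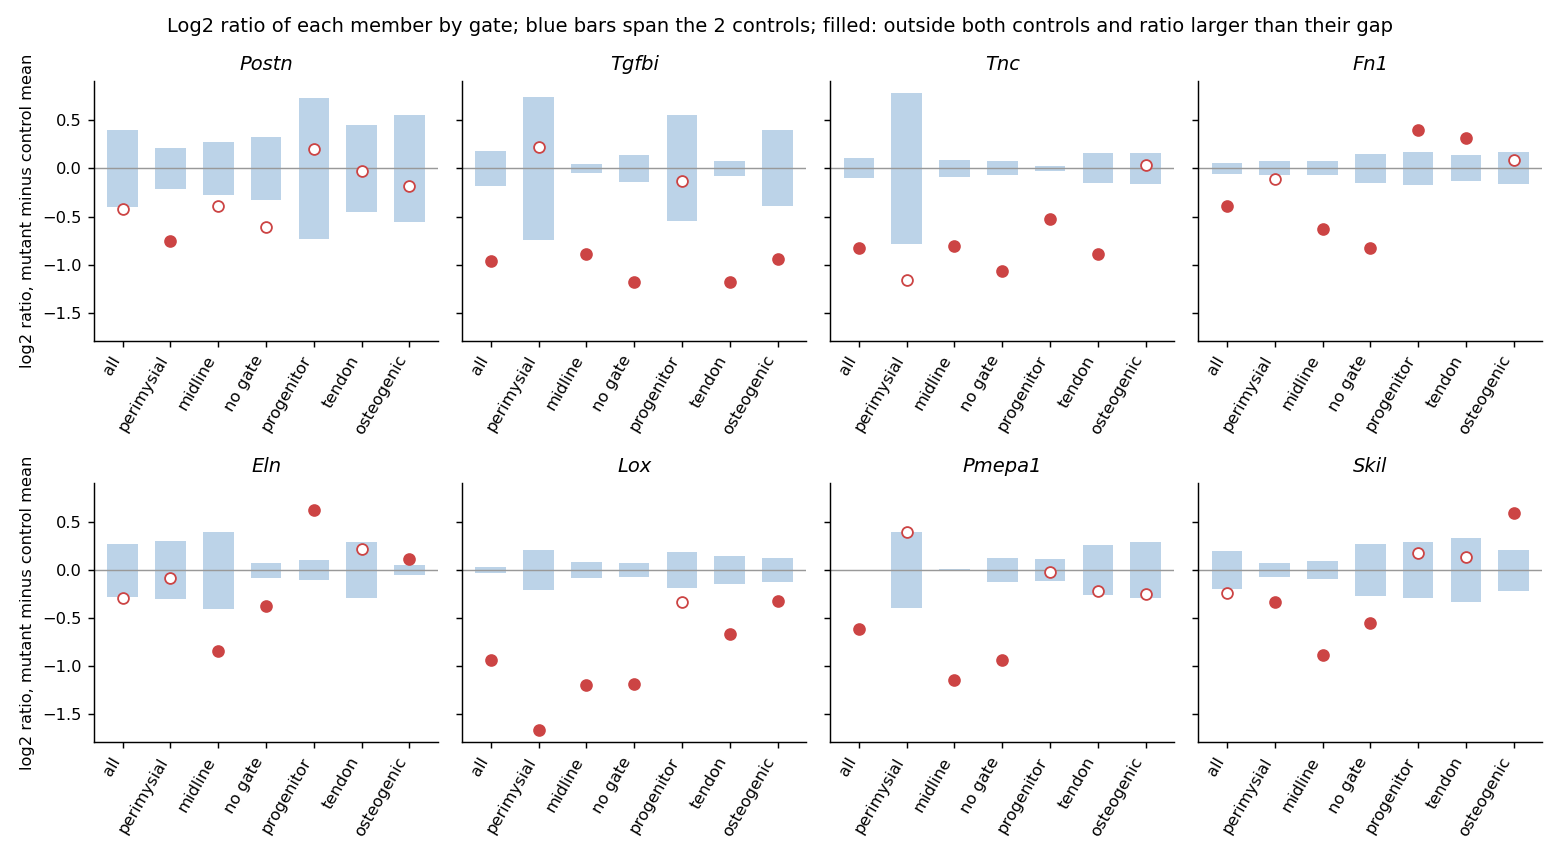
Log2 ratio of the mutant to the mean of the controls (vertical axis) for each tested member in the whole gated mesenchyme, 3 exclusive gates and 3 overlapping gates (horizontal axis). Blue bars span the 2 controls, and filled points lie outside both controls with a ratio larger than their gap; *Lox* points are below 0 in all 7 groups, while *Eln* and *Fn1* lie above 0 in the progenitor gate.

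The progenitor, tendon and osteogenic gates held under 30 cells in at least 1 library when cells had to meet a single gate. After these cell numbers were seen, they were read with cells that could meet several gates (56 to 510, 69 to 420 and 44 to 322 cells a library), so cells are shared between these gates. The label checks were not made on these wider gates. In the tendon gate 3 of 8 members were clear of the gap in the lower direction, beside 22.8% of genes, and 1 in the higher, beside 16.7%. *Tgfbi* was at 81.3, 72.9 and 33.9 CPM there (log2 ratio -1.18), *Tnc* at 76.9, 62.0 and 37.3 CPM (-0.89) and *Lox* at 163, 199 and 114 CPM (-0.66), while *Fn1* was at 232, 192 and 263 CPM (0.31). EdgeR called 65 of 8608 genes in this gate (0.755%) and no member, and the lowest adjusted p of a member was that of *Tgfbi* (0.236).

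In the progenitor gate 1 member was clear of the gap in the lower direction, beside 21.3% of genes, and 2 in the higher, beside 10.7%. *Tnc* was at 47.8, 49.7 and 33.8 CPM, while *Eln* was at 133, 155 and 221 CPM and *Fn1* at 137, 174 and 203 CPM, both above both controls. EdgeR called 0 of 8683 genes (0.0%), with 190 at an unadjusted p under 0.05 and no member among them. In the osteogenic gate 2 were clear of the gap in the lower direction, beside 25.2%, and 2 in the higher, beside 10.9%. *Tgfbi* was at 18.5, 31.96 and 12.6 CPM and *Lox* at 125, 149 and 109 CPM. *Skil* was at 28.6 CPM (19.8 to 39.9), 38.3 (22.7 to 60.6) and 49.8 (42.3 to 58.3). *Eln* was at 89.0 CPM (72.9 to 108), 83.1 (59.1 to 114) and 93.5 (83.0 to 105). EdgeR called 58 of 8009 genes there (0.724%) and no member. The mutant values of *Eln*, *Fn1* and *Skil* thus lay above the controls in some gates and below them in others, though no member passed a test of a difference between gates. In the osteogenic gate the mutant intervals of *Eln* and *Skil* overlapped those of a control. In the midline gate with cells that could meet several gates, *Fn1* and *Skil* were below both controls and *Eln* was between them.

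*Lox* and *Tgfbi* were lower than in both controls among dividing and other cells alike. In cells with at least 3 of 6 mitotic genes, *Lox* was at 149, 152 and 81.4 CPM and *Tgfbi* at 36.6, 52.3 and 25.9 CPM. In the other mesenchymal cells, *Lox* was at 178, 164 and 87.4 CPM and *Tgfbi* at 55.0, 67.5 and 28.8 CPM.

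The members were also read in cell classes outside the mesenchyme. *Tgfbi* was highest in the myeloid cells, at 113 CPM (88.3 to 142), 244 (209 to 282) and 77.2 (60.2 to 97.6), and the 2 controls differed there by more than the mutant differed from control 1. *Skil* was at 81.5, 126 and 129 CPM in these cells and at 78.2, 126 and 90.6 CPM in epithelial cells, above its mesenchymal level in each library in both. *Postn* was at 346, 755 and 319 CPM in mural cells, which surround vessels, and *Lox* at 112, 107 and 96.7 CPM, with overlapping intervals. In myeloid cells of control 1 several mesenchymal members were also counted, with *Postn* at 199, 23.0 and 29.8 CPM, *Eln* at 116, 8.12 and 29.8 CPM and *Lox* at 84.6, 10.8 and 5.52 CPM. *Osr2*, a mesenchymal gene, was at 128, 27.1 and 6.62 CPM in the same cells, so transcripts of mesenchymal genes were counted at a higher level in the myeloid cells of control 1 than in those of the other libraries. Their part in the differences above was not tested.

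**Figure D4:**
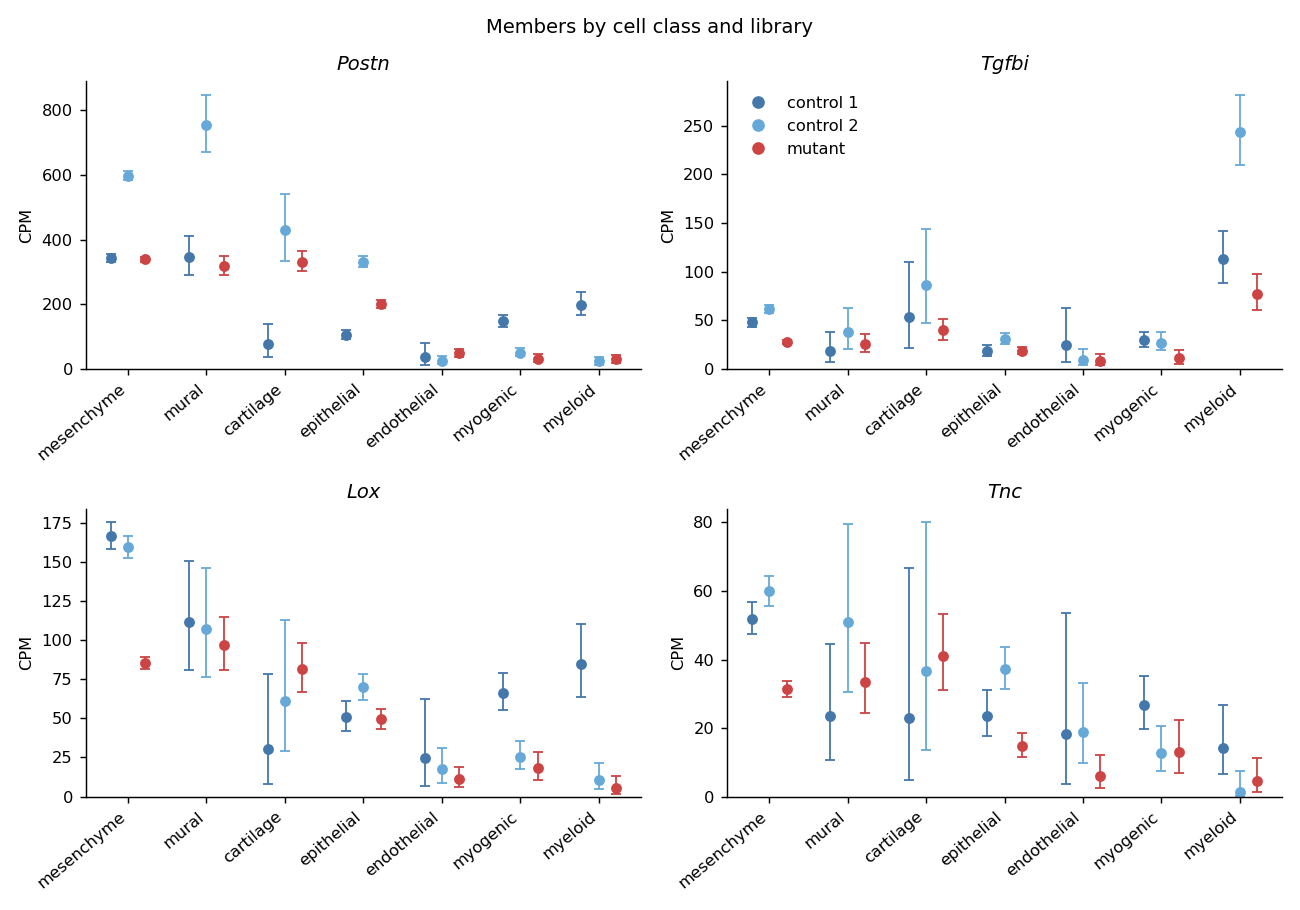
Level of *Postn*, *Tgfbi*, *Lox* and *Tnc* in counts per 1000000 UMIs (vertical axes from 0) in 7 gated cell classes (horizontal axes) of control 1 (dark blue), control 2 (light blue) and the mutant (red). Points are 1 library each with exact 95% Poisson intervals; *Tgfbi* is highest in myeloid cells, at 77.2 to 244 CPM, and *Lox* and *Tnc* in the mutant lie below both controls in the mesenchyme.

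Related genes from 8 lists were read in the whole mesenchyme, where 28.6% of all genes tested were clear of the control gap in the lower direction and 9.35% in the higher. Of the other TGF-β readouts (11 listed, 8 tested), 2 were clear of the control gap in the lower direction and none in the higher, with a median log2 ratio of 0.04. The 2 were *Tgif1*, a repressor of SMAD targets, at 47.3, 43.3 and 36.8 CPM and *Tgfb1i1*, a focal adhesion protein, at 58.3, 56.1 and 50.9 CPM. *Smad7*, the inhibitory SMAD, was at 25.9, 28.3 and 27.3 CPM, with the mutant between the controls. These genes were chosen after their values were seen. The largest ratios were those of *Bambi*, a pseudoreceptor, at 31.3, 17.2 and 32.6 CPM, and *Cdkn1a*, a cell cycle inhibitor, at 17.9, 12.2 and 20.3 CPM, both within their control gaps.

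Of the partners of elastin and of crosslinking (12 listed, 9 tested), 2 were clear of the gap in the lower direction and none in the higher. They were *Fbln5*, which guides elastin onto microfibrils, at 67.0, 87.6 and 50.8 CPM, and *Mfap4*, a microfibril protein, at 333, 279 and 233 CPM. *Loxl1* and *Loxl2*, enzymes related to *Lox*, were at 47.3, 55.0 and 53.2 CPM and at 33.8, 51.0 and 40.4 CPM, both between the controls and both chosen after their values were seen. Of 7 matrix receptors tested, 4 were lower and 2 higher by the same rule, with *Itga8* at 13.5, 16.3 and 9.48 CPM and *Itga9*, a tenascin receptor chain, at 9.97, 14.2 and 21.996 CPM (edgeR adjusted p = 0.569).

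Of 6 collagen genes, which were those of fibrillar chains and *Col12a1*, 3 were lower and 2 higher by that rule, and the median log2 ratio was -0.02. *Col12a1*, which does not encode a fibrillar chain, was 1 of the 2 higher. *Col12a1*, of collagen on the fibre surface, was at 149, 189 and 289 CPM, and *Col3a1* at 1115, 886 and 752 CPM, none called by edgeR. The CCN family other than *Ccn2* had 2 genes tested, *Ccn1* at 359, 226 and 199 CPM and *Ccn4* at 48.5, 35.3 and 54.2 CPM, neither clear of its gap. Of 4 YAP readouts tested 1 was lower by the rule, *Ajuba* at 21.8, 19.6 and 12.7 CPM, while *Amotl2* was at 36.7, 50.9 and 56.1 CPM.

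Of the contractile genes (10 listed, 8 tested), 3 were lower and 1 higher by the rule, beside 28.6% and 9.35% of all genes, and 1 passed the test. *Acta2*, smooth muscle actin and a classic myofibroblast gene, fell to 7.30 CPM in the mutant from 38.0 and 27.2 in the controls (edgeR log2 ratio -2.16 ± 0.41, adjusted p = 4.51e-05). DESeq2 gave a log2 ratio of -2.08 (adjusted p = 0.00365), and edgeR with TMM factors -2.07 with an adjusted p of 0.222, so the call was lost while the size was close to the same. It also fell in the midline gate, to 10.9 CPM from 46.6 and 35.0 (edgeR adjusted p = 3.16e-04), where the edgeR log2 ratio was -1.89 and DESeq2 gave -1.81 (adjusted p = 0.183). *Acta2* was called in 12 of the 13 settings tried in the whole mesenchyme and in 12 of 13 in the midline gate, all from the same libraries. In the perimysial gate and the no-gate cells it was called in 0 of 12 and 0 of 13. The 8 mural cell markers, of cells that also express *Acta2*, summed to 44.5, 46.5 and 61.3 CPM in the gated mesenchyme, with 2 of them at 0 in each library. The 8 myogenic markers, of cells that can also express *Acta2*, summed to 83.2, 19.6 and 6.23 CPM, in the same order as *Acta2*, with none at 0. The part of muscle or mural RNA in this result was not tested. Stress and immediate early genes (11 listed, 9 tested), which dissociation can induce, had 3 genes above both controls and clear of the gap and none below. Their median log2 ratio was 0.26. The largest ratios were those of *Fosb* at 91.3, 145 and 182 CPM and *Atf3* at 17.9, 11.8 and 19.5 CPM. Both were within their control gaps and so not among the 3.

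Across 21 profiles (7 groups of mesenchymal cells in each of 3 libraries, of which the groups of a library share its preparation and depth and several are of few cells), the genes whose log2(CPM + 1) followed each member most closely were read among 8376 genes. *Postn* was followed by *Wipf1* (Pearson r 0.949) and *Fbn2*, of fibrillin 2 (0.948). *Lox* was followed by *BC065397* (0.840) and *Tmem263* (0.821), *Tgfbi* by *Flnc* (0.789) and *Aida* (0.779), and *Tnc* by *Tdrd3* (0.902) and *Tshz3* (0.901). *Fn1* was followed by *Hdac7* (0.948) and *Meg3* (0.946), *Eln* by *Celf2* (0.890) and *Igf1* (0.882), *Pmepa1* by *Dst* (0.863) and *Eps15l1* (0.838), and *Skil* by *Actn4* (0.821) and *Appbp2* (0.792). Among the members, the closest pairs were *Fn1* with *Eln* (0.826) and *Fn1* with *Postn* (0.798), and the least alike *Eln* and *Lox* (0.116), the fibre protein and its crosslinking enzyme.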

How the data were processed

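Soft palate cells of 2 control libraries and 1 mutant library were profiled, and the deposited gene counts are whole UMI numbers per cell barcode that the authors made with Cell Ranger (4.0.0 in the file headers and the methods, 3.1.0 in the submitters' processing notes, with mm10). No depth or batch correction is in these counts. Barcodes under 500 genes or over 10% mitochondrial UMIs were dropped, and the highest Scrublet scores were removed at 0.8% per 1000 barcodes (58, 131 and 598 cells), since Scrublet's own threshold called 3, 1 and 0. A cell belonged to another lineage with at least 2 genes and 3 UMIs of its list, or with over 5% erythroid UMIs. Counts were summed per gate and library and scaled to CPM. Intervals are exact Poisson or Clopper-Pearson at 95% and cover counting error only.

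Sums were tested with edgeR 4.0.16 (quasi-likelihood, R 4.3.3), with UMI totals as library sizes, genes of at least 10 CPM on average and Benjamini-Hochberg adjustment over all genes. The only residual degree of freedom came from the 2 controls, and the lone mutant library was assumed to vary like them. The SE is the log2 ratio divided by the square root of F. The log2 ratio without a fit is the mutant's log2 CPM minus the mean of the controls'. DESeq2 1.42.0, TMM factors and other filters and gates were tried. The script was tested on simulated data. The members and lists were chosen with earlier results of these data known. Named genes were the members, the called genes of each list or else its 2 largest ratios, and the 2 most alike genes of each member. Gene positions are from GENCODE M21 on GRCm38.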

Additional observations from a re-analysis of the deposited data

How the results depend on the processing

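In the whole mesenchyme the 8 tested members kept negative log2 ratios under each of the 13 alternatives for single genes. The alternatives reuse the same libraries, so they are not separate support for the sign. The median log2 ratio over all genes was itself -0.08 in the main setting. Most of the 8408 genes tested thus had a negative ratio too, as the plot of gene numbers by log2 ratio shows. *Ccn2*, tested only with every gene, had 0.35. The 103 genes called there became 2 with TMM factors, 29 with DESeq2, 264 with every gene that had a UMI tested, 52 with at least 3 mesenchymal genes required and 34 with cells thinned to 3000 UMIs. The 0 genes called for gate by genotype became 1 with TMM factors, 1 with DESeq2, 23 with every gene tested, 3 and 13 with other lineages left out at 2 genes and 2 UMIs or at 3 genes and 5 UMIs, 2 with thinned cells and 14 with overlapping gates. In the perimysial gate the log2 ratio of *Tgfbi* turned to -0.17 with 1 mesenchymal gene required, -0.027 at 3 genes and 5 UMIs, -0.16 thinned, -0.20 with overlapping gates and -0.045 as a mean over cells, and ranged from -0.52 to 0.96 with 1 control left out. *Fn1* turned to 0.027 at 2 genes and 2 UMIs, 0.31 thinned, 0.11 overlapping and 0.079 as a mean over cells, *Eln* to 0.14 with *Hic1* and *Ebf2* each required and 0.22 without control 1, *Pmepa1* to -0.16 thinned and -0.16 overlapping, and *Skil* to 0.39 thinned and 0.47 with *Hic1* and *Ebf2* each required. The cause was not tested. With 3 mesenchymal genes required the perimysial gate had under 30 cells in a library and gave no value. No paired analysis was possible because the mutant has a single library, which leaves fewer than 2 pairs. Leaving out a control leaves 1 library against 1, a value with no test. Counts of under about 30 UMIs, as for *Tgfbi* and *Tnc* in the perimysial gate, limit what can be seen there.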
